A study of Mus musculus with 10 samples.

Results

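The replication-dependent histone genes of the mouse were followed through 5 Hi-C interaction lists of bone marrow-derived MFs. Every protein-coding gene in the GENCODE M21 annotation with a symbol starting with Hist1h, Hist2h or Hist3h was taken, which gave 66 of 21755 protein-coding genes on the autosomes and the X chromosome. Each line of a list is a pair of 10 kb bins on 1 chromosome with its number of Hi-C contacts, and a line was taken as a histone line when either bin overlapped the 25 kb on each side of a member's transcription start site (TSS). Between 125 and 147 lines per list qualified, out of 53424 to 67728, and together they held 263 of 153264 different bin pairs.

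All MFs were differentiated with M-CSF from the bone marrow of wild type female C57BL/6 mice of 2 to 3 months. M0[CTR] cells received no cytokine beyond it, M2[IL-4] cells received 20 ng/ml IL-4 for 24 h, and M2p[pIL-4] cells received the same IL-4 followed by washout and 24 h of rest. IFNG cells received 20 ng/ml interferon gamma for 3 h, and pIL-4 + IFNG cells received it after IL-4, washout and rest. The labels name 2 samples per group, but there is 1 list per group, so no spread between replicates is known and no difference between groups could be tested. Intervals below are exact or Wilson 95% intervals and cover counting error only. The lists held 2174945 to 2787117 contacts in all, with a median of 32 contacts per line in each. Hi-C lines are not expression: all 6 macrophage marker genes looked up had a line in every list, as did all 4 T cell, 3 of 4 B cell and 1 or 2 of 3 fibroblast markers.

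Replication-dependent histone genes encode the core histones H2A, H2B, H3 and H4 and the linker histone H1 that package newly made DNA, and most are transcribed in S phase. They lie in clusters, lack introns, and their mRNAs end in a conserved stem-loop in place of a poly(A) tail, which the stem-loop binding protein (Slbp) holds. The clusters gather in the histone locus body, a nuclear body built around Npat, where transcription and 3' end processing are concentrated.

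The Hist1 cluster on chromosome 13 fell into 4 subclusters when split at gaps over 100 kb, named here A to D from left to right. Hist1-A held 18 members (13:21715763-21837530, GRCm38), Hist1-B held 5 (22035164-22043676), Hist1-C held 29 (23531050-23764406) and Hist1-D held 2 (23933773-23934851). Hist2 on chromosome 3 held 10 members (96219865-96270132) and Hist3 on chromosome 11 held 2 (58948920-58956830). A gap of 1487 kb separates Hist1-B from Hist1-C and holds 40 protein-coding genes, 36 of them vomeronasal receptor genes (Vmn1r). By product the members comprised 6 H1, 18 H2A, 18 H2B, 12 H3 and 12 H4 genes. The 66 TSSs lie in 30 bins, so members of 1 bin share most or all of their lines and are not independent of each other.

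Sequence shared by the members was read from the reference and not from these cells. The 16-base histone stem-loop consensus was found within 100 bases after the stop codon in 62 of 66 members (93.9%, Wilson interval 85.4 to 97.6%) and in 0 of 3388 other protein-coding genes with an annotated stop codon on chromosomes 3, 11 and 13 (interval up to 0.113%). It began 22 to 59 bases after the stop codon, with a median of 31.0. The 4 members without a match were Hist1h2an, Hist1h3g, Hist1h4a and Hist2h2be. There were 6 different sequences, and the 3 most frequent are shown with the arms of the stem in capitals, because they split by product: the first was carried by 41 members of the H1, H2A, H2B and H3 kinds, the second by 9 of the same kinds, and the third by 7 members that all encode H4.
Stem-loop of Hist1h1a and 40 others: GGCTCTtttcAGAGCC
Stem-loop of Hist1h1t and 8 others: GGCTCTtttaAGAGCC
Stem-loop of Hist1h4c and 6 others: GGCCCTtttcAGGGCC

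Of the members, 24 (36.4%) stood in 12 divergent pairs with TSSs less than 500 bases apart, against 6.12% of all protein-coding genes, and all 12 pairs joined an H2A to an H2B gene over 175 to 305 bases. RefSeq promoters (250 bases before to 50 after the start, GRCm38.p6) were matched for 61 members. A CCAAT box (CCAAT or ATTGG) was present in 53 of them (86.9%) and in 37.9% of the 27025 promoters of the table. It was present in every matched H1, H2A, H2B and H3 promoter, but in 3 of 11 H4 promoters. A TATA box (TATAAA or TTTATA) was present in 57.4% of members and 14.2% of all promoters, and the octamer (ATTTGCAT or ATGCAAAT) in 21.3% and 1.75%, with all 13 octamer promoters at H2A or H2B genes.

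Some promoters are printed with these motifs in capitals. They lie in the bin pair between Hist1-B and Hist1-C with the most contacts summed over the lists (below). Other single bins there had more. The first is the whole stretch between Hist1h2ag and Hist1h2bj in Hist1-B (chr13:22042945-22043213, plus strand), which holds 5 CCAAT boxes. The second is the 250 bases before Hist1h4i in Hist1-B (chr13:22041363-22041612, minus strand), with 1 TATA box. The third is the 250 bases before Hist1h4h in Hist1-C (chr13:23530794-23531043, plus strand), where none of these motifs occurs. The same Hist1-C bin holds the TSSs of Hist1h2af and Hist1h3g, whose promoters are not printed. A CCAAT box was present in all 18 H2A promoters, that of Hist1h2af among them.
Hist1h2ag/Hist1h2bj: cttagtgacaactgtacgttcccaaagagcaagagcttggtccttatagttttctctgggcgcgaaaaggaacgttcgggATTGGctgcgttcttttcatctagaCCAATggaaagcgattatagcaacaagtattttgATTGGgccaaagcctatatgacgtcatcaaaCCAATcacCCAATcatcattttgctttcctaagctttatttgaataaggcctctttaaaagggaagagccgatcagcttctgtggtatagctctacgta
Hist1h4i: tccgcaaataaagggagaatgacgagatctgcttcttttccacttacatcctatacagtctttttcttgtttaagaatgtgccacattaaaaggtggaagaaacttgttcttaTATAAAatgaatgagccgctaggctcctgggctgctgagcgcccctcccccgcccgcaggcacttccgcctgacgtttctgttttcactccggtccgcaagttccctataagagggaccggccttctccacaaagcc
Hist1h4h: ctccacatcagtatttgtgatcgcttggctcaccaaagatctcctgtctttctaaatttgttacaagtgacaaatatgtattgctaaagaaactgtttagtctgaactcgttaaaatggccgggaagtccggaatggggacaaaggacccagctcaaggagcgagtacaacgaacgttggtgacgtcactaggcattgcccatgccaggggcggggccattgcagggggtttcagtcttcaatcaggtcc

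Histone genes had many lines in every group. Below, 5 values in a row stand for M0[CTR], M2[IL-4], M2p[pIL-4], IFNG and pIL-4 + IFNG, in that order. The median member had 9.0, 6.0, 10.5, 9.0 and 12.5 lines, where the median protein-coding gene had 1 or 2. At least 1 line was present at 62 to 66 members per list, and at 57.6 to 61.9% of all protein-coding genes. Hist1 held 90, 80, 89, 92 and 102 lines. Hist2 held 35, 45, 39, 36 and 44. Hist3 held 1 line of 125 contacts between adjacent bins in M0[CTR], 1 line of 106 contacts over 30 kb in pIL-4 + IFNG, and none elsewhere. The lists differ in length, so counts are read against the list below. Of the 263 bin pairs, 203 had a histone bin that was also within 25 kb of another gene's TSS, including all 74 at Hist2, where Bola1 and the Fc receptor gene Fcgr1 are neighbours. No TSS of another protein-coding gene lies within 25 kb of Hist1-B. What part the neighbouring genes had in the lines was not tested.

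**Figure D1:**
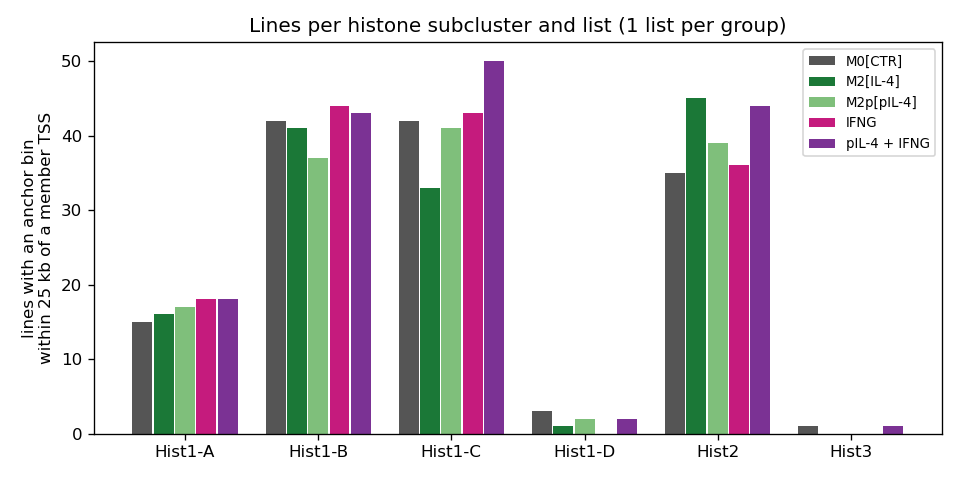
Number of lines (y axis) with an anchor bin within 25 kb of a member TSS, by subcluster (x axis) and list (bar colour, 1 list per group, so without error bars). Hist1-B, with 5 genes, held 37 to 44 lines per list, about as many as Hist1-C with 29 genes (33 to 50).

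Members differed widely in lines. All 5 members of Hist1-B (Hist1h2ah, Hist1h2bk, Hist1h4i, Hist1h2ag and Hist1h2bj) had the same 42, 41, 37, 44 and 43 lines, or 207 over the lists, the most of any member. In Hist1-C, the H4 gene Hist1h4h and the H2A gene Hist1h2af at the left edge had 112 lines over the lists. The linker histone gene Hist1h1e (34) and the H2B gene Hist1h2be (34) had the fewest. Hist1h2be is annotated from 23583670 to 23621124 on the minus strand. Its TSS is thus in the bin of Hist1h1e, and its lines are those around that bin, not around its other end. In Hist1-A the right-hand genes Hist1h4n, Hist1h2ap and Hist1h2br had 50, and Hist1h2an and Hist1h2bp had 16. Hist1-D, made of Hist1h2ba and Hist1h2aa, had 8. In Hist2 the range ran from 69 (Hist2h3c2, Hist2h2aa2) to 116 (Hist2h4). By product, the median member had 45.5 lines over the lists for H1, 48.0 for H2A, 42.0 for H2B, 48.0 for H3 and 46.0 for H4. Members of 1 kind still ranged widely, from 2 to 207 for H2A and H2B.

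The pattern particular to Hist1-B was its reach. Lines of at least 1.2 Mb made up 0.712 to 0.898% of each list. Hist1-B held 30 of 421 of them in M0[CTR] (7.13%, interval 5.04 to 9.99%). Its share was 6.88% with IL-4 (30 of 436), 5.39% after washout (26 of 482), 5.87% with IFNG alone (29 of 494) and 6.13% in pIL-4 + IFNG (30 of 489). All histone genes together held 0.152 to 0.182% of the shorter lines. In no list did another histone subcluster hold a line that long without Hist1-B. The set was singled out after its values were seen. Its shortest line spans 1240 kb, just above the limit, and from 1 Mb upwards Hist1-B held 145 of 5354 lines over the lists (2.71%). These shares are therefore a description and carry no test. Sorted by the first anchor into windows of 1 Mb, the window from 22 Mb on chromosome 13, which holds Hist1-B and further bins, had the most such lines of 426 windows, 162 over the 5 lists, next to 158 at 23 Mb on chromosome 16 and 139 at 62 Mb on chromosome 15. Neighbouring bin pairs are not separate events: with touching bin pairs merged, Hist1-B held 27 of 1828 long contacts over the lists, or 1.48%, in place of 145 of 2322, or 6.24%.

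In each of the 5 lists the line of at least 1.2 Mb with the most contacts was anchored at Hist1-B. The bin pair was not the same throughout. It ran to Hist1-C in M0[CTR], M2[IL-4] and IFNG, and outside the histone clusters in M2p[pIL-4] and pIL-4 + IFNG. These top lines had 26, 17, 21, 23 and 18 contacts, and the highest elsewhere in the genome had 19, 16, 19, 20 and 16. These counts are small and their counting errors overlap. The same bin pairs came back from list to list: 10 of 54 long Hist1-B pairs (18.5%, interval 10.4 to 30.8%) were present in all 5 lists, whereas 7 of 1900 other long pairs (0.368%, interval 0.179 to 0.759%) were. These intervals count touching bin pairs as separate, so they are too narrow. Hist1-B was singled out for its long lines, and other windows rich in long lines were not compared on their own. The shares are therefore a description.

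**Figure D2:**
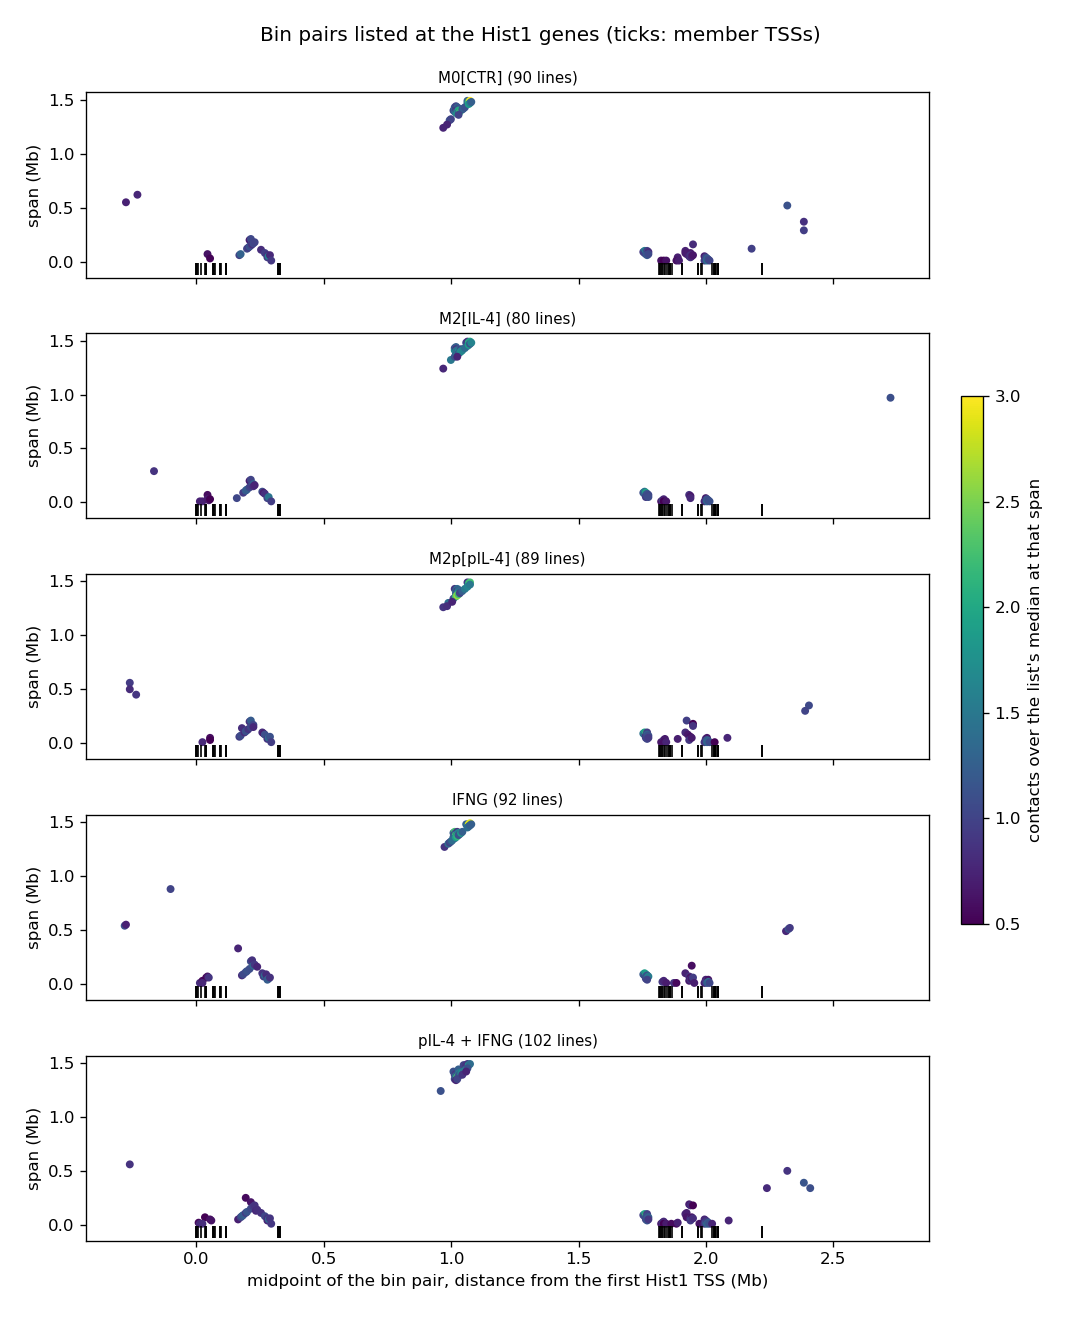
Lines at the Hist1 genes in each of the 5 lists: midpoint of the bin pair as distance from the first Hist1 TSS in Mb (x axis), span in Mb (y axis), and contacts relative to the list's median at that span (colour); ticks mark member TSSs. In every list a tight group of lines at 1.24 to 1.49 Mb of span stands apart, between Hist1-B and the left edge of Hist1-C, and no other line spans more than 970 kb.

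The far ends of the long lines fell mostly in 2 places. The first was the stretch from 23.42 to 23.47 Mb, outside the histone clusters, around the TSSs of Abt1, a gene named as an activator of basal transcription, and of the butyrophilin gene Btn1a1. Its bin at 23.43 Mb had 38, 45, 41, 50 and 34 contacts. The second was the left edge of Hist1-C, from 23.50 to 23.54 Mb. Its bin at 23.52 Mb had 41, 33, 36, 33 and 21. The bin at 23.53 Mb, with the TSSs of Hist1h4h, Hist1h2af and Hist1h3g, had 36, 29, 18, 33 and 11. The whole left edge came to 103, 96, 67, 110 and 63 over its 7, 8, 5, 8 and 7 lines. A pair that is not listed adds nothing to these sums. At the 5 such pairs listed in both, M2p[pIL-4] had 67 contacts and M2[IL-4] 60 (scaled ratio 1.08, interval 0.754 to 1.56). At the 4 listed in both, M2p[pIL-4] had 54 and M0[CTR] 67 (0.784, 0.537 to 1.14). On the Hist1-B side, the bin at 22.05 Mb, to the right of the genes, carried most (715 contacts over the lists), and the bin at 22.04 Mb with Hist1h4i, Hist1h2ag and Hist1h2bj came next (448).

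**Figure D3:**
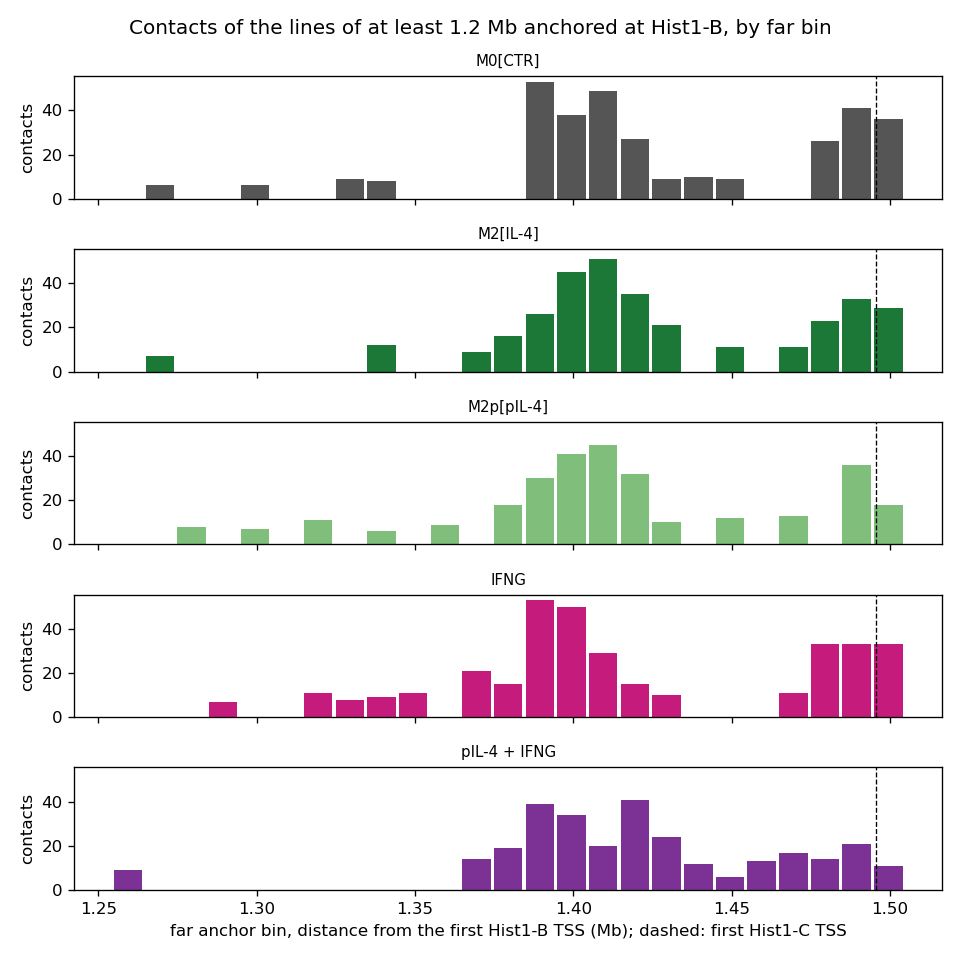
Contacts (y axis) of the lines of at least 1.2 Mb anchored at Hist1-B, summed by far anchor bin, against the distance of that bin from the first Hist1-B TSS in Mb (x axis), 1 panel per list; the dashed line marks the first Hist1-C TSS. Each list has a mound near 1.40 Mb, and a second group that ends at the first Hist1-C genes. The tallest bin of the second group is lowest in pIL-4 + IFNG (21 contacts). Summed over its bins, the second group has 67 contacts in M2p[pIL-4], 63 in pIL-4 + IFNG and 96 to 110 elsewhere. Pairs that are not listed add nothing to these sums, and M2p[pIL-4] lists the fewest (5). The first bin of the second group, at 23.50 Mb of the chromosome, is highest in pIL-4 + IFNG (17).

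Lines joining separate histone subclusters numbered 12, 11, 8, 13 and 11. Hist1-B was an end of all of them: 7, 8, 5, 8 and 7 ran to Hist1-C and 5, 3, 3, 5 and 4 to Hist1-A. No list holds a line over 1490 kb, so Hist1-A to Hist1-C, which lie farther apart, could not be seen, and Hist1-B to Hist1-C could be seen only at the near edge. Summed over the lists, the pair between Hist1-B and Hist1-C with the most contacts joined chr13:22040001-22050000 to chr13:23530001-23540000, the bins of the 3 promoters printed above. It had 26, 16, 18, 23 and 11 contacts. These were 3.25, 2.00, 2.25, 2.88 and 1.38 times the list's median at similar spans (within 10%). The neighbouring pair from the same Hist1-B bin to chr13:23520001-23530000 had 18, 17, 17, 23 and 14 contacts. In M2[IL-4] and pIL-4 + IFNG it was the higher of these pairs, and in IFNG they were equal. Both pairs were lowest in pIL-4 + IFNG. Hist1-A to Hist1-B was closer to its span: the pair at 21.85 and 22.02 Mb had 33, 40, 32, 43 and 29 contacts, or 0.935 to 1.34 times the median, and the pair at 21.82 and 22.03 Mb had 29, 28, 34, 30 and 17.

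Within Hist1-C the lines were short, spanning 10 to 210 kb, and their contacts were mostly low for that span. Of 112 lines over the lists, 92 were below the list's median at their span, with ratios of 0.430 to 1.40 and a median of 0.766, and the 5 bin pairs above it in a list lay between 23.70 and 23.74 Mb. The bin pair at 23.71 and 23.72 Mb had 199, 182, 190, 171 and 192 contacts, 1.16 to 1.40 times that median. The TSS in this stretch is that of Hfe, the regulator of iron uptake mutated in hereditary haemochromatosis, between the histone genes Hist1h4c and Hist1h1c. In Hist2, lines fanned out from the edges of the cluster: the bins at 96.27 and 96.28 Mb, to the right of Hist2h2bb, had 45 and 50 lines over the lists, and those at 96.19 and 96.21 Mb, on the left, had 37 and 40. The last of these holds the TSSs of Bola1 and Hist2h2ab. The pair of 96.28 and 96.43 Mb had 54, 65, 54, 49 and 57 contacts, 1.44 to 1.97 times the median at its span, the highest ratio in Hist2. Next was 96.27 and 96.43 Mb, with 44, 47, 45, 52 and 51. Inside the cluster, the adjacent bins of Hist2h2ac/Hist2h2be and Hist2h3c2 had 164, 170, 199, 216 and 175.

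Of 75 bins within 25 kb of a member, 13 had no line in any list, among them 4 bins that hold the TSSs of 11 members. As background, reads that fit several places in a genome are hard to assign. The share of 100-base windows found once on the bin's own chromosome had a median of 99.2% over the 75 bins, but was 43.9% in the bin of Hist1h2bq, Hist1h2ao and Hist1h4m and 12.6% in that of Hist1h4n, Hist1h2ap and Hist1h2br, both in Hist1-A and both without a line. All 5 bins under 50% had no line, against 8 of 70 above it (the limit was chosen after the values were seen). The bins of Hist1h4a, Hist1h3a and Hist1h1a (96.7%) and of Hist1h2ba and Hist1h2aa (99.2%) also had none. The 6 Hist1-B bins were 94.4% unique or more. MboI sites, where the DNA was cut, numbered 23.0 per bin at the median, with 24.0 over all bins of the 3 chromosomes. The core CTCF motif with up to 1 mismatch, on either strand, was present in 28.0% of the 75 bins and in 21.0% of all bins of chromosomes 3, 11 and 13, but in 0 of the 6 Hist1-B bins. The part of either feature in the lines was not tested.

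**Figure D4:**
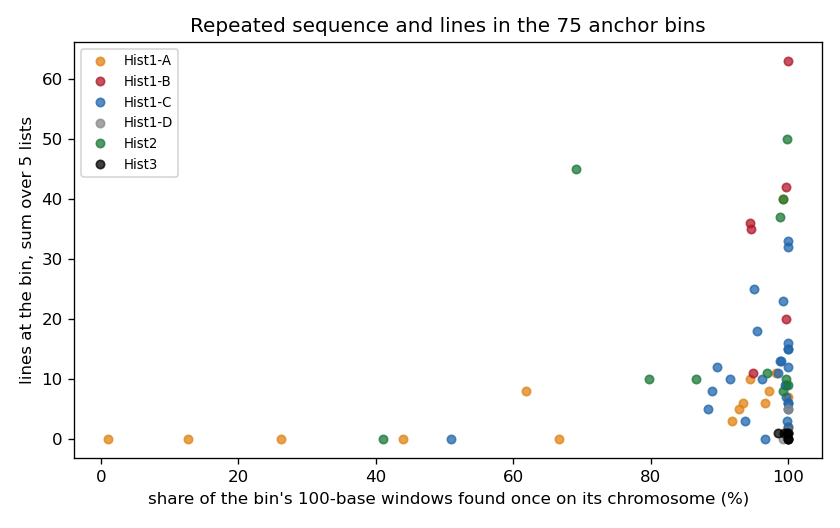
Lines at each of the 75 anchor bins, summed over the 5 lists (y axis), against the share of the bin's 100-base windows found once on its chromosome in percent (x axis), coloured by subcluster. The 5 bins under 50% lie at 0 lines, and the bin with the most lines (63, Hist1-B) lies at the right edge.

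Histone bin pairs came back between lists more often than the average pair: 51 of 263 (19.4%, interval 15.1 to 24.6%) were present in all 5 lists, against 9.18% of all 153264 bin pairs. The share was 17.6% in Hist1 and 24.3% in Hist2. Touching bin pairs count as separate here too. In contrast, 43.3% of histone pairs and 55.5% of all pairs were present in 1 list alone.

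To ask how the groups differed, lines per gene were scaled by list length with 1 line added to each count, and a gene with at least 10 lines over both lists was counted when it changed 2-fold or more. The comparisons share lists, M0[CTR] being the reference of 3 of them. In M2[IL-4] against M0[CTR], 6 of 47 members that reached 10 lines were lower and 0 higher (12.8%), while 5.23% of all 7232 genes passed in either direction. The 6 were all in Hist1-C: Hist1h1e and Hist1h2be, which had 11 lines in M0[CTR] and 3 with IL-4 (log2 ratio -1.71), Hist1h3d and Hist1h4d (9 and 4, -1.13), and Hist1h2ac and Hist1h2bc (14 and 7, -1.03). Each of these pairs shares its lines, so the percentage counts the same lines more than once. Hist1h1e, Hist1h2be, Hist1h2ac and Hist1h2bc reached 10 lines in M0[CTR] alone, the list in which they were higher. Of the 19 members under 10 lines, 3 were 2-fold higher and 4 lower: Hist1h4k, Hist1h2ak and Hist1h2bn in Hist1-A had 6 lines against 2 (1.10), and those of Hist1-D and Hist3 were lower with 3 lines or fewer. The median over the members was -0.39, and -0.03 over all genes; Hist2 was at 0.04. The largest rises, Hist2h3b and Hist2h2bb, went from 21 lines to 29 (0.32).

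In M2p[pIL-4] against M0[CTR], 2 of 50 members were lower (4.00%, with 3.97% of all genes), again Hist1h1e and Hist1h2be, with 5 lines against 11 (-1.34). Here too both reached 10 lines in M0[CTR] alone. The largest rises were 0.29 for Hist2h3c2 and Hist2h2aa2. In IFNG against M0[CTR], 5 of 55 were higher (9.09%, with 5.55% of all genes), all at the left end of Hist1-A. Hist1h2bl, Hist1h2ai, Hist1h3h and Hist1h2bm had 9 lines against 2 (1.69) and Hist1h4j had 8 against 3 (1.13). They reached 10 lines through the IFNG list alone. In the other 3 lists the first 4 had 5, 5 and 6 lines and Hist1h4j had 6, 4 and 7, so M0[CTR] was the lowest list for all 5. The lowest were Hist1h1e and Hist1h2be with 8 against 11 (-0.46). No member passed 2-fold in pIL-4 + IFNG compared with M2p[pIL-4] (0 of 58, all genes 4.57%), in M2p[pIL-4] against M2[IL-4] (0 of 53, all genes 3.82%) or in pIL-4 + IFNG against IFNG (0 of 58, all genes 3.81%). In the first of these, the median over the members was 0.23, and 0.02 over all genes. Hist1h4j was highest (0.69), with Hist1h4k among those next (0.50). Members of 1 bin share lines, and the line ratio of the whole Hist1 cluster had an interval that included 0 (below). In the second, Hist1h4a, Hist1h4b, Hist1h3a and Hist1h1a were highest with equal values (0.92), and Hist1h4j, Hist1h4k, Hist1h2ak and Hist1h2bn lowest (-0.70). In the third, 6 members from Hist1h2ae to Hist1h4d were highest (0.52), and Hist1h2bl, Hist1h2ai, Hist1h3h and Hist1h2bm lowest (-0.80).

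**Figure D5:**
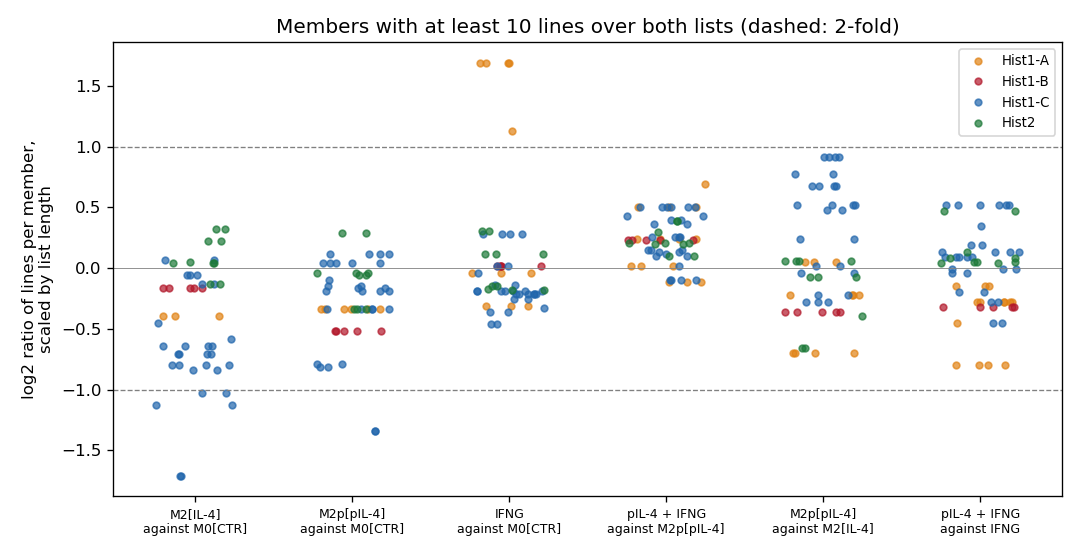
Log2 ratio of lines per member, scaled by list length (y axis), for the members with at least 10 lines over both lists in each of the 6 comparisons (x axis), coloured by subcluster; dashed lines mark 2-fold. Against M0[CTR], points past them are 6 Hist1-C members with IL-4, 2 after washout, and 5 Hist1-A members with IFNG.

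Lines inside Hist1-C, with both bins at its genes, numbered 24, 15, 23, 22 and 28. Per 10000 lines of the list these were 4.49, 2.57, 3.40, 4.00 and 4.18, lowest in M2[IL-4] and next lowest in M2p[pIL-4]. At the 12 such pairs listed in both M2[IL-4] and M0[CTR], which leaves out every pair that dropped from a list, the contacts were 1062 and 1153, a ratio of 0.922 after scaling (exact interval 0.847 to 1.00). Scaled line ratios of whole clusters had intervals that included 0 in all 6 comparisons, from -0.36 (interval -0.80 to 0.08; Hist1, M2p[pIL-4] against M0[CTR]) to 0.21 (-0.21 to 0.64; Hist1, pIL-4 + IFNG compared with M2p[pIL-4]) in Hist1, and from -0.42 (-1.08 to 0.23) to 0.24 (-0.43 to 0.92) in Hist2. The lowest became -0.49 (-0.98 to -0.01) with lists thinned to the shortest.

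At bin pairs listed in both groups, contacts were compared after scaling by the total at all shared pairs. Past 1.5-fold were 4 of 81 histone pairs in M2[IL-4] against M0[CTR] (4.94%, all pairs 3.60%), 5 of 82 in M2p[pIL-4] against M0[CTR] (6.10%, all pairs 3.34%) and 4 of 78 in IFNG against M0[CTR] (5.13%, all pairs 3.35%). There were 5 of 85 in pIL-4 + IFNG compared with M2p[pIL-4] (5.88%, all pairs 3.47%), 5 of 84 in M2p[pIL-4] against M2[IL-4] (5.95%, all pairs 3.40%) and 6 of 83 in pIL-4 + IFNG against IFNG (7.23%, all pairs 3.50%). These are few pairs in each comparison, and the lines of at least 1.2 Mb, which have few contacts, held most of them. Called were 4 of 21 such Hist1-B pairs in M2[IL-4], 3 of 18 in M2p[pIL-4] and 3 of 19 in IFNG against M0[CTR], beside 1 of 38, 3 of 34 and 5 of 40 other pairs of that span. In the remaining comparisons, in the order above, they were 4 of 15, 4 of 19 and 4 of 17, beside 4 of 48, 2 of 41 and 5 of 41. The 5 and 6 calls in the comparisons of pIL-4 + IFNG, which share its list, were all lower in it and came from 8 different pairs, 3 of them called in both. Summed contact ratios of Hist1 and Hist2 lay between 0.950 and 1.04, each with an interval that included 1. Without adjacent bins, the Hist1 ratio of pIL-4 + IFNG against IFNG was 0.929 (0.873 to 0.989), and without scaling that of M2p[pIL-4] against M2[IL-4] was 1.07 (1.01 to 1.13).

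Among 54 contact ratios of overlapping sets of pairs, 4 had an interval without 1, and all 4 were of Hist1-B in pIL-4 + IFNG. They are not separate results. The long pairs and the pairs to Hist1-C are part of the Hist1-B set, and both comparisons share the pIL-4 + IFNG list. This set is described because of these values, and no alternative setting was run for ratios of subclusters. Over the 25 Hist1-B pairs listed in both, pIL-4 + IFNG had 502 contacts and IFNG 635, a ratio of 0.802 (0.712 to 0.903). Over 22 pairs, it had 549 and M2p[pIL-4] 643, a ratio of 0.865 (0.771 to 0.971). The 5 pairs between Hist1-B and Hist1-C gave 48 against 79 in IFNG (0.617, 0.421 to 0.894). Against M2p[pIL-4], 4 such pairs gave 41 and 55 (0.755, 0.492 to 1.15), an interval that included 1. The long Hist1-B pairs had a ratio of 0.791 against IFNG (0.646 to 0.967) and 0.844 against M2p[pIL-4] (0.682 to 1.04). Intervals without 1 were also found for 3.58% of 754 windows of 1 Mb with at least 10 shared pairs against IFNG, and for 5.01% of 798 against M2p[pIL-4]. At the 15 Hist1-B pairs present in all 5 lists, scaled to M0[CTR], there were 398, 380, 376, 424 and 318 contacts. The Poisson interval of the last ran from 284 to 354, that of the lowest other value, M2p[pIL-4], from 339 to 415, and that of IFNG from 385 to 465. The 5 short pairs, 205 in pIL-4 + IFNG and 242 to 283 elsewhere, and the 10 long pairs, 112 and 129 to 141, were both lowest there. Hist2, at its 18 such pairs, had 1195 to 1268.

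The single histone pairs with the largest changes, among those with at least 50 contacts over both lists, were spread over the clusters. Against M0[CTR], the largest fall was 63 to 42 contacts in M2[IL-4] at 23.69 and 23.73 Mb in Hist1-C (log2 ratio -0.58, interval -1.18 to 0.00), 38 to 25 in M2p[pIL-4] at 96.06 and 96.21 Mb in Hist2 (-0.64) and 52 to 31 in IFNG at 96.28 and 96.42 Mb in Hist2 (-0.79, -1.48 to -0.12). The largest rises against M0[CTR] were 0.48, 0.59 and 0.55. In pIL-4 + IFNG the largest falls were both at Hist1-B: 34 to 17 contacts from M2p[pIL-4], in the pair that joins it to Hist1-A at 21.82 and 22.03 Mb (-0.98, -1.91 to -0.10), and 80 to 46 from IFNG, at 21.97 and 22.01 Mb (-0.78, -1.33 to -0.24).

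Genes that act in making and processing histone mRNA lie elsewhere in the genome. Of 18 listed, 12 to 15 had a line in each list (66.7 to 83.3%, beside 57.6 to 61.9% of all genes), with medians of 1.5, 2.0, 3.0, 2.5 and 2.5 lines beside 1, 1, 2, 1 and 2. Npat, the scaffold of the histone locus body, had 1 line in M2p[pIL-4] and 0 in the other lists, and Slbp had 0, 2, 2, 3 and 1. E2f1, an activator of S phase genes, had 3, 9, 13, 3 and 9. It passed 2-fold upwards against M0[CTR] with IL-4 (1.20) and after washout (1.47), and in pIL-4 + IFNG against IFNG (1.04). With 3 lines in M0[CTR] and in IFNG, E2f1 reached 10 lines mostly through the lists in which it was higher. Eri1, a nuclease that trims histone mRNA, passed downwards in M2p[pIL-4] against M0[CTR] (4 lines against 7, -1.02). Among the 18 these were the genes past 2-fold, with 5 to 7 reaching 10 lines per comparison. In M2[IL-4] against M0[CTR] this was 1 of 5, where 5.23% of all genes passed. In M2p[pIL-4] against M0[CTR] it was 1 higher and 1 lower of 6 (all genes 3.97%). In pIL-4 + IFNG against IFNG it was 1 of 6 (all genes 3.81%). Of 12 histone genes outside the clusters, 9 to 11 had a line per list. The linker gene H1fx had 14 lines with IL-4 and 5 in M0[CTR] (1.20), and H2afx, whose product marks DNA breaks, had 7 lines in M0[CTR], 3 with IL-4 (-1.13) and 9 after washout (1.10 against M2[IL-4]). Against M0[CTR], H1fx reached 10 lines through M2[IL-4] alone, the list in which it was higher, and H2afx only with both lists added. Of that list, 6 genes reached 10 lines in M2[IL-4] against M0[CTR] (all genes past 2-fold 5.23%). In M2p[pIL-4] against M2[IL-4] 6 did as well (3.82%). No other gene of that list passed 2-fold.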

How the data were processed

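Hi-C was performed on 10 samples of bone marrow-derived MFs, 2 for each of 5 groups, after MboI digestion. Per the labels and methods, the authors mapped reads to mm10 with Bowtie2 in HiC-Pro, and Juicer and HOMER are also named. They deposited 1 list per group of 10 kb bin pairs with whole-number contact counts, both samples apparently merged. The caller and threshold behind these lists are not given in the sources used here: the methods describe loops at 25 kb. Lists end at 1490 kb of span and hold only pairs that passed, so a pair not listed is not known to lack contacts.

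Members, subclusters and gene lists were chosen with earlier results of these data known. Each line was counted once per gene, cluster or subcluster. Named genes and pairs were taken from the members with the most and the fewest lines in each subcluster, the 2 largest rises and falls per comparison, the 10 pairs between subclusters with the most contacts, the 3 pairs per cluster highest for their span, and the largest rise and fall per comparison among pairs with at least 50 contacts. Ratios of contacts used pairs listed in both groups. Their scatter was 0.626 to 0.659 of that of independent counts. It was 0.224 to 0.251 at pairs with under 30 contacts over both lists, and 0.789 to 0.860 with at least 100. The part that the cut from below in both lists has in this was not tested, and intervals take no account of it. Shares carry Wilson, sums Poisson and ratios exact binomial (Clopper-Pearson) 95% intervals. Scripts ran in Python 3.11.15 with pandas 2.3.3, scipy 1.17.1 and samtools 1.23.1 and were tested on simulated data. Sequences came from GRCm38 and RefSeq (GRCm38.p6). Alternatives changed window, bins, scaling, minimum counts and pseudocount.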

Additional observations from a re-analysis of the deposited data

How the results depend on the processing

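No paired analysis was possible because there is 1 list per group and the lists carry no replicate, and no single replicate could be left out. Of 142 values of 53 results under alternatives, 87 kept their size and 55 moved. A reversal was counted only for ratios whose main interval left out equality. None of the ratios tried here had such an interval, so none could be counted as reversed. Some log2 line ratios did change sign without scaling by list length. In Hist1, pIL-4 + IFNG against IFNG went from -0.14 to 0.15, and M2p[pIL-4] against M2[IL-4] from -0.06 to 0.15. In 3 cases, given beside the results, an interval no longer included equality. They were a Hist1 line ratio with thinned lists, and a Hist1 contact ratio each without adjacent bins and without scaling. Line counts depend on the window. In the order M0[CTR], M2[IL-4], M2p[pIL-4], IFNG and pIL-4 + IFNG, lines with a bin that holds a member TSS numbered 35, 29, 35, 41 and 44 at Hist1 and 10, 13, 16, 13 and 17 at Hist2. A window of 100 kb gave 81, 98, 86, 98 and 105 at Hist2. Merging touching bin pairs gave 29, 22, 36, 29 and 34 at Hist1 and 14, 13, 16, 13 and 16 at Hist2. Requiring 20 contacts left 56, 49, 57 and 65 at Hist1 in M0[CTR], M2[IL-4], IFNG and pIL-4 + IFNG. Lines between subclusters fell to 7, 5, 8 and 7 in M0[CTR], M2p[pIL-4], IFNG and pIL-4 + IFNG when subclusters were split at 300 kb, which joins Hist1-A to Hist1-B, and to 1, 1, 1, 2 and 2 when both bins had to hold a member TSS.

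Members past 2-fold against M0[CTR] numbered 13 with IL-4, 4 after washout and 12 with IFNG, and those of pIL-4 + IFNG numbered 2 against M2p[pIL-4] and 2 against IFNG, when genes with at least 1 line were counted. Of the 13, 3 were higher and 10 lower, and of the 12, 8 were higher and 4 lower. In M2p[pIL-4] against M2[IL-4] they numbered 4 with a pseudocount of 0.5 and 6 without scaling. Histone pairs past 1.5-fold with at least 50 contacts over both lists against M0[CTR] numbered 0 with IL-4, 2 after washout and 1 with IFNG, and 1 in each of the other comparisons, so most came from pairs of few contacts. Without scaling, 7 passed in IFNG against M0[CTR]. Without adjacent bins, the Hist2 contact ratio of IFNG against M0[CTR] was 0.945. The Hist1-B share of the longest lines was 2.71% from 1 Mb upwards, where no further Hist1-B line was added, and 1.48% with touching pairs merged, both chosen after seeing the data.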

Other observations

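The bin to the right of Hist1-A, at 21.85 Mb, holds no TSS of a member or of another protein-coding gene. It had 9, 7, 8, 7 and 9 lines in M0[CTR], M2[IL-4], M2p[pIL-4], IFNG and pIL-4 + IFNG, or 40 over the lists, more than any other bin of Hist1-A, and its neighbour at 21.84 Mb had 0. Of its 100-base windows 99.2% were found once on the chromosome, and 26.2% of those of its neighbour. The bin of Fcgr1 next to Hist2, at 96.29 Mb, had 0, 5, 2, 0 and 1 lines in the same order.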
